A study of Homo sapiens with 9 samples.

Results

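The genes examined were CRYAB, HSPB8, HSPB2 and HSPB3, which encode small heat shock proteins, and BAG3, a co-chaperone that works with them. They were chosen by name, with earlier results of these data known. Every probe set annotated to a single gene of this list was taken, which gave 5 probe sets, 1 for each gene, among 22215 on the array. LNCaP, a human prostate cancer cell line that carries the androgen receptor, was held for 2 days in medium with 10% charcoal-stripped serum, which is poor in steroid hormones, and this starvation was common to all groups. The cultures then received 1 nM of the synthetic androgen R1881 with 1.25 µM celastrol (androgen plus celastrol), 1 nM R1881 with DMSO (androgen), or ethanol with DMSO (vehicle), with 3 Affymetrix arrays in each group. Celastrol, a plant triterpenoid, is known to activate the heat shock factor HSF1 and to disturb HSP90, the chaperone of the androgen receptor. Treatment lasted 24 h in the androgen plus celastrol and vehicle arrays, while the titles of the 3 androgen arrays say 6 h and their descriptions 24 h, so that differences from the androgen arrays may hold a part from time, which was not tested. The labels call the arrays biological replicates of 1 cell line without saying how cultures were separated, and p-values measure the spread between these arrays. No group received celastrol without androgen.

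Small heat shock proteins bind unfolding proteins without using ATP and hold them until an HSP70 chaperone refolds them or hands them on for breakdown. CRYAB (alphaB-crystallin) and HSPB8 are abundant in muscle and heart and are made in many stressed cells, whereas HSPB2 and HSPB3 are largely muscle proteins that form a complex with each other. BAG3 binds HSP70 and HSPB8 at the same time, and this complex delivers damaged proteins to autophagy. HSF1, the main transcription factor of the heat shock response, is known to bind inverted repeats of the letters GAA.

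RefSeq promoter windows (GRCh38.p14) were at hand for 3 of the 5 genes, and not for CRYAB or HSPB2. Shown are those of HSPB8, which rose with celastrol over androgen, and of BAG3 and HSPB3, which were not called in that comparison. Each runs from 250 bases before the start of the gene to 20 bases after it, and capitals mark matches to the core of a heat shock element (GAANNTTC or TTCNNGAA), to the AP-1 site TGACTCA or to the core of an antioxidant response element (TGACNNNGC), searched on both strands. They lie at chr12:119178681-119178950 (HSPB8), chr5:54455449-54455718 (HSPB3) and chr10:119651130-119651399 (BAG3), all on the plus strand.
HSPB8: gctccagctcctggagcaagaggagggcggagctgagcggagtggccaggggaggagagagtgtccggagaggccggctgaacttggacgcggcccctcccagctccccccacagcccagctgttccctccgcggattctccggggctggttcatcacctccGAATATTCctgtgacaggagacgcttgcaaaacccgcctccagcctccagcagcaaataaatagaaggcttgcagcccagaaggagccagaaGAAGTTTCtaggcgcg
HSPB3: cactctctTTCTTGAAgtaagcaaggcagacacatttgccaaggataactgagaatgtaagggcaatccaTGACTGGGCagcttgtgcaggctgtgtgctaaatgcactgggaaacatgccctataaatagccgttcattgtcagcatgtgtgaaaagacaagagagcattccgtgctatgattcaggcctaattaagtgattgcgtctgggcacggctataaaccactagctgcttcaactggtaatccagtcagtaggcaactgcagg
BAG3: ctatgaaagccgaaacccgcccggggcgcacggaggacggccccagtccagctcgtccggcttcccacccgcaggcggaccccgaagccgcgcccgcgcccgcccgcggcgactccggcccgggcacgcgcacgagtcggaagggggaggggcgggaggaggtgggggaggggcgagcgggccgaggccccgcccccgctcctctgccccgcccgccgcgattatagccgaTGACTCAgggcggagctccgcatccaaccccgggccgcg
The HSPB8 window held GAATATTC, which begins 88 bases before the start, and GAAGTTTC, which begins at base 5 of the transcript. The HSPB3 window held TTCTTGAA and the antioxidant element core TGACTGGGC, and the BAG3 window held only the AP-1 letters among these motifs. Of 35116 windows of 300 bases in the RefSeq table, 13.5% held a heat shock element core, 1.71% held at least 2, 4.95% held the AP-1 letters and 13.3% the antioxidant element core, so that single matches were common. The AP-1 letters and the antioxidant element core can overlap, since both can begin with TGAC. A match is a string of letters and not evidence of binding, and a relation of these letters to the changes was not tested.

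The arrays were of similar brightness, with medians between 72.2 and 80.2 intensity units. Vehicle array 3 stood apart, since the distances of its genes from the mean of the vehicle arrays had an SD of 0.31 on the log2 scale, against 0.12 to 0.20 on the other arrays. As checks of the treatments, the androgen-induced KLK3 was higher with androgen than with vehicle (log2 change 2.15 ± 0.08), and the oxidant-induced HMOX1 was higher with androgen plus celastrol than with vehicle (6.13 ± 0.26). Of the 9 luminal prostate markers listed, 7 were measured, and their summed intensity was 37083 to 40535 with androgen plus celastrol, 50262 to 53689 with androgen and 27159 to 28245 with vehicle. All 9 listed markers of skeletal and heart muscle were measured and summed to only 339 to 420.1 with androgen plus celastrol, 446 to 507 with androgen and 343 to 429 with vehicle. Of these 9, only MYBPC1, a myosin-binding protein, was called in any comparison, at a mean of 43.5 units with androgen plus celastrol, 166 with androgen and 37.9 with vehicle. Each log2 change stands with its limma standard error, and adjusted p is the Benjamini-Hochberg value over 12165 genes, with 0.05 as the threshold.

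Celastrol given with androgen raised CRYAB and HSPB8 above both other groups and left BAG3 near its level with androgen alone. Against androgen, 2 of the 5 genes were called, both upwards, where 16.2% of all genes tested were called, 9.0% upwards and 7.24% downwards. The arrays of the groups were separate, that is without overlap, for the same 2 genes, both higher, where this held for 35.9% of all genes and 20.4% were higher. The number of all genes called in this comparison was 1976, and 1306 without androgen replicate 2. Against vehicle, 3 of the 5 genes were called, all upwards, where 23.3% of all genes were called and 13.3% upwards. The same 3 genes had separate arrays, all higher, where this held for 37.2% of all genes and 20.1% were higher. Androgen alone raised BAG3 and lowered HSPB8 relative to vehicle, with 2 of 5 called where 13.0% of all genes were, 7.17% upwards and 5.84% downwards. Both also had separate arrays, as had 28.3% of all genes, 14.1% higher and 14.2% lower. Of all genes called for androgen against vehicle, 872 were higher and 711 lower, and 1182 were higher and 529 lower with each array's median subtracted. The balance turned with quantile normalization repeated (885 higher and 973 lower) and without vehicle replicate 3 (864 higher and 972 lower). The comparisons share arrays and are not independent of each other. HSPB2 and HSPB3 stayed near the dim end of the arrays in every group.

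**Figure D1:**
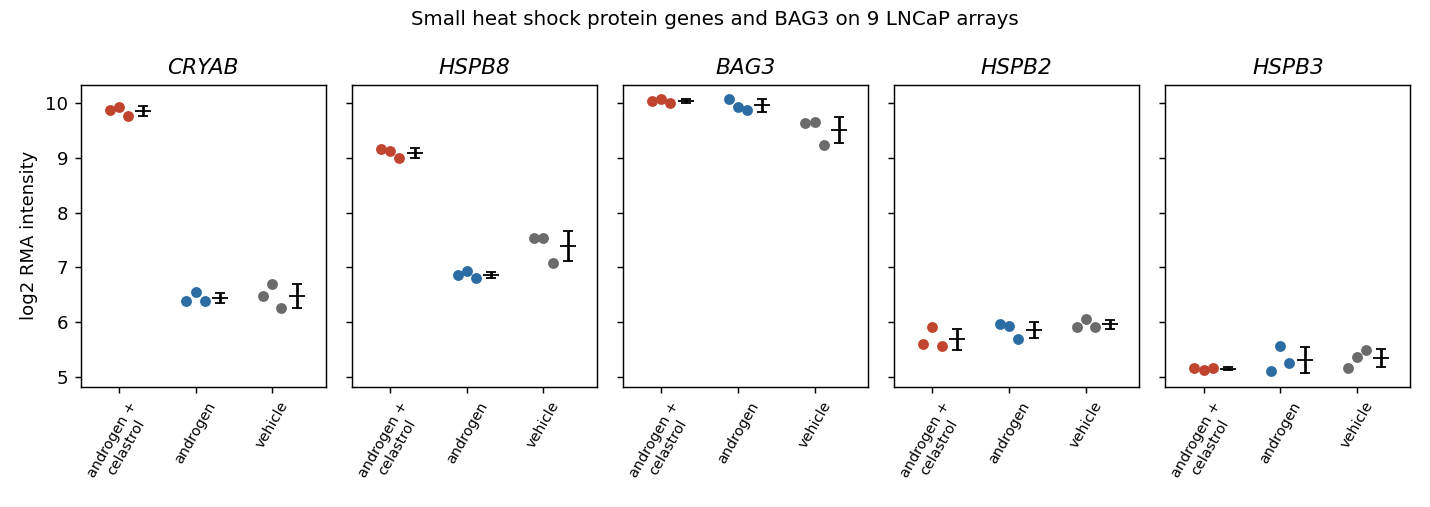
Log2 RMA intensity (vertical axis) of each gene's probe set on the 9 arrays, with 3 arrays each of androgen plus celastrol, androgen and vehicle from left to right (points), and the mean and SD of each group (black bars, n = 3). The CRYAB and HSPB8 points of androgen plus celastrol lie far above all others, the lowest BAG3 points are those of vehicle, and heights in different panels come from different probes and are not comparable.

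CRYAB was measured at 943, 983 and 867 intensity units with androgen plus celastrol, at 83.5, 93.0 and 83.1 with androgen, and at 88.3, 103.6 and 76.8 with vehicle. The androgen plus celastrol arrays lay apart from all others by a wide gap, whereas the androgen arrays lay within the range of the vehicle arrays. The means were 931 ± 58.9 with androgen plus celastrol, 86.6 ± 5.62 with androgen and 89.6 ± 13.4 with vehicle (SD, n = 3 each). CRYAB thus stood 10.8-fold higher than with androgen (95% interval 8.93 to 13.0, adjusted p = 1.74e-06 by limma) and 10.5-fold higher than with vehicle (8.69 to 12.6, adjusted p = 9.34e-07). It ranked 5 from the top of 12165 genes in the first of these comparisons and 7 in the second, in which both groups were treated for 24 h. With androgen against vehicle its log2 change was -0.04 ± 0.12 (95% interval -0.31 to 0.23, adjusted p = 0.888). In these bulk extracts, more RNA in every cell and a larger number of cells that carry it cannot be told apart.

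HSPB8 was measured at 574, 556 and 509 units with androgen plus celastrol, at 115, 121 and 112 with androgen, and at 186, 187 and 134 with vehicle. No 2 of the 3 groups overlapped, with androgen plus celastrol highest and androgen lowest. The means were 546 ± 33.2 with androgen plus celastrol, 116 ± 4.59 with androgen and 169 ± 30.0 with vehicle (SD, n = 3 each). HSPB8 was 4.69-fold higher with androgen plus celastrol than with androgen (95% interval 3.82 to 5.77, adjusted p = 2.49e-05 by limma). Against vehicle the rise was smaller, at 3.26-fold (2.65 to 4.01, adjusted p = 3.54e-05), since androgen alone had a lower level than vehicle. HSPB8 ranked 17 from the top against androgen and 76 against vehicle.

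The fall of HSPB8 with androgen against vehicle was -0.52 ± 0.13 on the log2 scale (adjusted p = 0.0301 by limma), which corresponds to 0.695 of the vehicle level. This call was close to the threshold. It was lost without vehicle replicate 1 (adjusted p = 0.106) or 2 (0.0957), without any 1 of the androgen arrays (0.0759 to 0.101) and without androgen plus celastrol replicate 2 (0.0525). The same held after subtraction of array medians (0.0553) and when only these 2 groups were fitted (0.0757). Without vehicle replicate 3, the array that stood apart and that held the lowest HSPB8 value among the vehicle arrays, the change was -0.68 ± 0.08 (adjusted p = 0.000878). The direction was downwards in each of the 18 alternative settings.

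BAG3, the partner that ties HSPB8 to HSP70, was measured at 1051, 1087 and 1034 units with androgen plus celastrol, at 1087, 973 and 937 with androgen, and at 803, 807 and 601 with vehicle. The androgen plus celastrol and androgen arrays overlapped, and all 6 lay above the 3 vehicle arrays. The means were 1058 ± 27.1 with androgen plus celastrol, 999 ± 78.5 with androgen and 737 ± 118 with vehicle (SD, n = 3 each). BAG3 was 1.45-fold higher with androgen plus celastrol than with vehicle (95% interval 1.19 to 1.76, adjusted p = 0.0136 by limma). That call held in all 18 alternative settings, with adjusted p up to 0.0481. Against androgen the ratio was 1.06 (0.872 to 1.29, adjusted p = 0.737), so that the interval holds no rise of BAG3 with celastrol beyond 1.29-fold at this normalization.

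The rise of BAG3 with androgen against vehicle was 1.37-fold (95% interval 1.12 to 1.66, adjusted p = 0.0461 by limma). The call held in 9 of 18 alternative settings and was lost in the other 9, which were those without androgen replicate 1, 2 or 3 (adjusted p = 0.165, 0.116 and 0.0813), without androgen plus celastrol replicate 1, 2 or 3 (0.0650 to 0.0746), without vehicle replicate 1 (0.0558), with all probe sets fitted (0.0560) and with only these 2 groups fitted (0.111). The vehicle array that stood apart held the lowest BAG3 value, and without it the log2 change was 0.31 ± 0.09 (adjusted p = 0.0478), against 0.45 ± 0.12 with it.

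**Figure D2:**
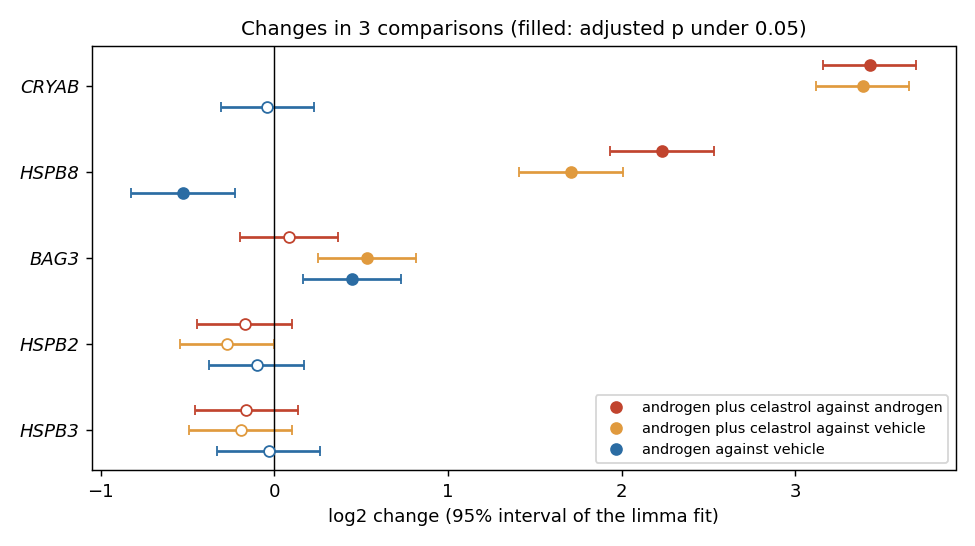
Log2 change of each gene in the comparisons of androgen plus celastrol with androgen, androgen plus celastrol with vehicle, and androgen with vehicle (horizontal axis; bars are 95% intervals of the limma fit, filled points passed the threshold). CRYAB and HSPB8 lie at 3.43 and 2.23 against androgen and at 3.39 and 1.71 against vehicle, BAG3 lies at 0.53 against vehicle, and every interval of HSPB2 and HSPB3 includes 0.

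Whether 2 of these genes changed by different amounts was tested on the difference of their log2 values within each array. Each gene was measured by its own probe set. The measured log2 change of CRYAB exceeded that of HSPB8 by 1.20 against androgen and by 1.68 against vehicle. The measured change of HSPB8 exceeded that of BAG3 by 2.15 against androgen and by 1.17 against vehicle. With androgen against vehicle, the change of HSPB8 minus that of BAG3 was -0.97, and that of CRYAB minus HSPB8 was 0.48. In each of these 6 comparisons the groups were separate, and the exact permutation test gave two-sided p = 0.1, adjusted p = 0.1, which is the smallest value that 3 arrays against 3 allow, so that the design could not reach the threshold.

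HSPB2 and HSPB3 were dim on every array. HSPB2, which binds the kinase of myotonic dystrophy in muscle, was measured at 48.1, 60.03 and 46.9 units with androgen plus celastrol, at 62.0, 60.6 and 51.4 with androgen, and at 59.8, 66.1 and 60.3 with vehicle. HSPB3 was measured at 35.6, 34.5 and 35.6 with androgen plus celastrol, at 34.2, 47.1 and 38.1 with androgen, and at 35.6, 41.1 and 44.8 with vehicle. The groups overlapped for both genes, and 35.62 occurred on 3 arrays of 2 groups for HSPB3. Between 38.2% and 46.1% of all probe sets on an array were dimmer than HSPB2 and between 21.8% and 38.9% dimmer than HSPB3, while at the highest group of CRYAB this share was 85.0% to 86.9%. The table holds no detection calls, so that a low level cannot be told apart from background for these 2 genes, and brightness also depends on the probes.

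None of the 6 limma tests of HSPB2 and HSPB3 passed the threshold, and 0 had an unadjusted p under 0.05. The log2 changes against androgen were -0.17 ± 0.12 for HSPB2 (95% interval -0.44 to 0.10, limma adjusted p = 0.442) and -0.16 ± 0.13 for HSPB3 (-0.46 to 0.14, adjusted p = 0.515). Against vehicle they were -0.27 ± 0.12 for HSPB2 (adjusted p = 0.146) and -0.19 ± 0.13 for HSPB3 (adjusted p = 0.331). Without androgen plus celastrol replicate 2, the brightest of its group for HSPB2, that gene was called lower against vehicle (-0.38, adjusted p = 0.0481). For androgen against vehicle the changes were -0.10 ± 0.12 and -0.03 ± 0.13 (adjusted p = 0.691 and 0.921). HSPB2 is the gene next to CRYAB on chromosome 11 in the RefSeq table, where the pair is known to lie head to head. The upper bound of the change of HSPB2 against androgen (0.10) lies far below the 3.43 of its neighbour. Since the HSPB2 probe set cannot be told apart from background, this bound cannot show whether HSPB2 RNA followed CRYAB.

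Around the 5 members, the measured genes called against androgen were ALG9, TIAL1 and RGS10, where 16.2% of all genes tested were called. The shares of all genes called against vehicle were 23.3% for androgen plus celastrol and 13.0% for androgen. Calls among so few genes are given as a description and not as a result about their position. The measured genes near CRYAB and HSPB2 included CFAP68 (-0.08 ± 0.12 against androgen, limma adjusted p = 0.728), DIXDC1 (0.20 ± 0.09, adjusted p = 0.183) and DLAT, a subunit of pyruvate dehydrogenase (-0.18 ± 0.08, adjusted p = 0.228). None of these 3 was called. ALG9, a mannosyltransferase of N-glycan assembly that lies beyond CFAP68, was higher with androgen plus celastrol than with androgen (0.96 ± 0.20, adjusted p = 0.0117) and than with vehicle (1.32 ± 0.20, adjusted p = 0.00151). Of the measured genes nearest HSPB8, the kinase gene TAOK3 was at -0.26 ± 0.13 (limma adjusted p = 0.262) against androgen. PRKAB1, a subunit of AMP-activated kinase, was at 0.44 ± 0.21 (adjusted p = 0.237). Genes without a probe set of their own can lie closer. PEBP1 and CIT, the next measured genes on each side of HSPB8, were not called in that comparison either, nor were any of the 4 measured genes nearest HSPB3 (NDUFS4, ARL15, ESM1 and GZMK). Of those nearest BAG3, TIAL1 (0.29 ± 0.08, adjusted p = 0.0356) rose and RGS10 (-0.60 ± 0.09, adjusted p = 0.00250) fell, while INPP5F and MCMBP were not called. Relative to vehicle, RGS10 was lower with androgen plus celastrol (-1.49 ± 0.09, limma adjusted p = 1.12e-05) and with androgen (-0.89 ± 0.09, adjusted p = 0.000258). TAOK3 was higher in the same comparisons (0.74 ± 0.13, adjusted p = 0.00393, and 1.00 ± 0.13, adjusted p = 0.00119). ARL15 was lower with androgen plus celastrol than with vehicle (-0.97 ± 0.22, adjusted p = 0.0117).

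Among the other small heat shock protein and BAG genes listed, 9 of 12 were measured by a probe set of their own. HSPB1, whose probe set is annotated to more than 1 gene, HSPB9 and HSPB11 were not analysed here. Against androgen, 2 of the 9 rose and none fell by limma (0 fell at an unadjusted p under 0.05), where 9.0% of all genes rose, with a median of 0.09 against 0.02 over all genes. The count called was between 1 and 3 when 1 array was left out. The risers were BAG2 and BAG1. BAG2, which restrains the ubiquitin ligase STUB1 on HSP70, averaged 512 ± 27.3 units with androgen plus celastrol, 263 ± 12.1 with androgen and 269 ± 72.6 with vehicle (SD, n = 3 each). It rose by 0.96 ± 0.18 against androgen (limma adjusted p = 0.00642) and by 0.96 ± 0.18 against vehicle (adjusted p = 0.00422). BAG1, which links HSP70 to the proteasome, averaged 969 ± 74.5 units with androgen plus celastrol, 623 ± 14.6 with androgen and 537 ± 103 with vehicle.

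BAG1 rose by 0.63 ± 0.14 against androgen (limma adjusted p = 0.0150) and by 0.87 ± 0.14 against vehicle (adjusted p = 0.00210). The call of BAG1 against androgen was lost without androgen plus celastrol replicate 3 (adjusted p = 0.0578), androgen replicate 2 (0.0522) or androgen replicate 3 (0.0561). BAG5 (-0.15 against androgen), BAG6 (0.13) and BAG4 (0.05) did not pass. CRYAA, the lens partner of CRYAB, was at 42.4 units with androgen plus celastrol, against 32.5 with androgen and 33.4 with vehicle, and did not pass (0.39 ± 0.17 against androgen, adjusted p = 0.195), except against androgen without vehicle replicate 2 (0.0444) or when only these 2 groups were fitted (0.0309), and against vehicle without vehicle replicate 2 (0.0100). HSPB6 and HSPB7, which are muscle forms, and ODF1 did not pass. Against vehicle BAG2 and BAG1 rose, where 13.3% of all genes did, with a median of 0.13 against -0.01 over all genes, and with androgen against vehicle none of the 9 passed by limma, while 1 (BAG5) had an unadjusted p under 0.05 and passed in 4 alternative settings.

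Of the 15 listed partners of BAG3 and HSPB8 in chaperone-assisted autophagy, 11 were measured, and 2 rose and 2 fell against androgen, where 9.0% of all genes rose and 7.24% fell (median -0.00, against 0.02 over all genes). The autophagy receptor SQSTM1 averaged 6161 ± 242 units with androgen plus celastrol, 2259 ± 182 with androgen and 2869 ± 59.6 with vehicle (SD, n = 3 each). It rose by 1.45 ± 0.08 against androgen (limma adjusted p = 2.35e-05) and by 1.10 ± 0.08 against vehicle (adjusted p = 3.04e-05). MAP1LC3B, which coats the autophagosome membrane, rose by 1.03 ± 0.16 against androgen (adjusted p = 0.00256) and by 1.02 ± 0.16 against vehicle (adjusted p = 0.00173). Both receptor and coat gene thus moved in the direction of CRYAB and HSPB8.

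The constitutive HSP70 gene HSPA8, to whose product BAG3 binds and which the heat shock factor list also holds, averaged 9400 ± 257 units with androgen plus celastrol, 13069 ± 441 with androgen and 13213 ± 637 with vehicle (SD, n = 3 each). It was lower against vehicle by -0.49 ± 0.07 on the log2 scale (limma adjusted p = 0.00147) as well as against androgen. HDAC6, a deacetylase that carries aggregates to the microtubule organising centre, was also called lower (-0.40 ± 0.09 against androgen, adjusted p = 0.0196), but at -0.09 (adjusted p = 0.726) when its probe sets were averaged, so that these disagree. Among members not called, SYNPO was at 0.24 and HSPA1A at -0.18 against androgen. Both were dim, at 44.3 and 26.2 units with androgen plus celastrol. HSPA1B averaged 1511 units with androgen plus celastrol, 1665 with androgen and 1732 with vehicle. It was at -0.14 ± 0.08 against androgen (limma adjusted p = 0.327) and -0.20 ± 0.08 against vehicle (adjusted p = 0.118). The latter passed with quantile normalization repeated (0.0236) and with an intensity trend (0.0434). HSPA1A and HSPA1B are near-identical in sequence and uncertain as separate genes. STUB1, the ubiquitin ligase of the complex, was at -0.01 ± 0.13 (adjusted p = 0.986).

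Against vehicle, 3 of these 11 genes rose, namely SQSTM1, MAP1LC3B and WIPI1, and HSPA8 and HDAC6 fell, with a median of 0.07, where 13.3% of all genes rose and 10.0% fell. The call of HDAC6 was lost here too when its probe sets were averaged (-0.13, limma adjusted p = 0.469). WIPI1, which acts early in autophagosome formation, was high in both androgen groups. It averaged 646 ± 97.4 units with androgen plus celastrol, 616 ± 96.6 with androgen and 127 ± 23.2 with vehicle, and rose by 2.28 ± 0.18 with androgen against vehicle (limma adjusted p = 5.09e-05), against a change of 0.07 ± 0.18 with celastrol over androgen (adjusted p = 0.861). SQSTM1 was called lower with androgen than with vehicle (-0.35 ± 0.08, adjusted p = 0.0233). With the replicate block, the call of SQSTM1 for androgen against vehicle was lost (adjusted p = 0.0511), as it was without vehicle replicate 1 (0.0791) or 2 (0.0509) or androgen replicate 1 (0.0962) or 2 (0.0997), after subtraction of array medians (0.123), with probe sets averaged (0.596) and with only these 2 groups fitted (0.0533).

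Of 24 listed genes of the heat shock factor response besides the members, 22 were measured. Against vehicle, where both groups were treated for 24 h, 1 rose and 4 fell, with a median of -0.12 against -0.01 over all genes. That is 5 of 22, where 23.3% of all genes were called, 13.3% upwards and 10.0% downwards. The share called was thus near that of all genes in this fit, but the calls were mostly downwards. At an unadjusted p under 0.05 by limma, 1 of the 22 was higher and 8 were lower. Called lower were 8 with quantile normalization repeated, 7 with dim genes left out and 8 with an intensity trend. Over all genes, those called lower numbered 1218 in the main fit and 1662, 1393 and 1353 in these settings. With 1 array left out, 4 to 6 of the 22 were called. DNAJB4, an HSP40 partner of HSP70, rose by 1.04 ± 0.09 (limma adjusted p = 6.50e-05), with 664 ± 50.5 units with androgen plus celastrol, 230 ± 7.32 with androgen and 322 ± 24.9 with vehicle (SD, n = 3 each). Its order of groups was that of HSPB8, with androgen below vehicle (-0.48 ± 0.09, adjusted p = 0.00764). The genes that fell against vehicle were HSPA4L (-1.15 ± 0.17, adjusted p = 0.00145), DNAJB1 (-0.56 ± 0.08, adjusted p = 0.00129), HSPA8 and HSPA1L (-0.40 ± 0.11, adjusted p = 0.0245). The call of HSPA1L was lost with only these 2 groups fitted (0.0502), without androgen plus celastrol replicate 2 (0.0769) or 3 (0.0683) and without vehicle replicate 1 (0.0839) or 2 (0.0742).

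HSPA4L and HSPA1L were also lower with androgen alone, by -1.30 ± 0.17 and -1.04 ± 0.11 against vehicle (limma adjusted p = 0.00115 and 0.000238), and with DNAJB4 they were the 3 of 22 genes called for androgen, all downwards, where 5.84% of all genes fell (median -0.04, which equals that of all genes). Against androgen, 2 of the 22 rose and 3 fell, where 9.0% and 7.24% of all genes did, with a median of -0.02 against 0.02 over all genes. DNAJB4 and HSPA1L rose, and DNAJB1, HSPA8 and DNAJA1 fell, of which DNAJA1 (adjusted p = 0.0320) lost its call in 8 alternative settings (up to 0.120), among them the replicate block (0.0729). HSPD1, the mitochondrial HSP60, was at 0.22 (adjusted p = 0.0758), and HSPH1 and the dim HSPA1A at -0.18, none of them past the threshold. Neither HSF1 (-0.05 ± 0.19 against androgen, 95% interval -0.48 to 0.39, adjusted p = 0.916) nor HSF4 nor the HSF1-binding HSBP1 passed in any of the 3 comparisons, so that 0 of 3 measured genes of the 4 listed were called and 0 had an unadjusted p under 0.05, while HSBP1 passed downwards against androgen and against vehicle when its probe sets were averaged.

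**Figure D3:**
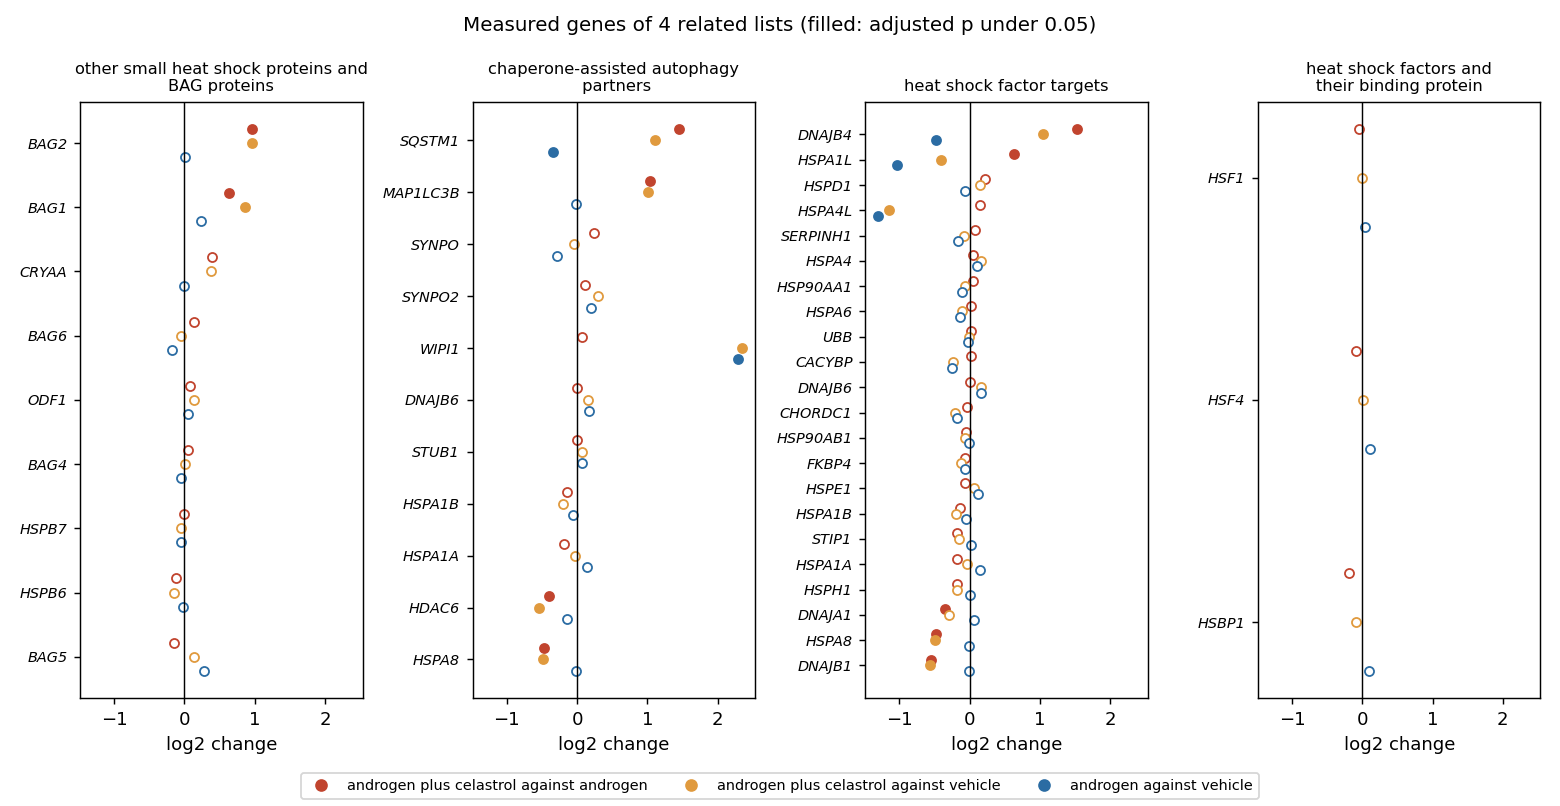
Log2 change (horizontal axis) of every measured gene of 4 lists in the comparisons of androgen plus celastrol with androgen, androgen plus celastrol with vehicle, and androgen with vehicle (filled points passed the threshold). BAG2 and BAG1, SQSTM1 and MAP1LC3B, and DNAJB4 lie to the right of 0 with celastrol in both comparisons, HSPA8 and DNAJB1 to the left, and most heat shock factor targets lie close to 0.

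The genes whose log2 profile over the 9 arrays was most like that of a member were taken from those whose group means spanned at least 1 on the log2 scale, by Pearson's r, as a description. The arrays form groups, so that a high r mainly reflects the same order and spacing of the 3 groups. For CRYAB, among 841 genes, these were HMOX1 (r = 0.998), AKR1C2 (0.995), NQO1 (0.995), AKR1C1 (0.995) and EMC3 (0.994), of which AKR1C1 and AKR1C2 are near-identical in sequence and uncertain as separate genes. Their changes with androgen plus celastrol against vehicle lay between 1.08 and 6.22, and CRYAB at 3.39 stood between NQO1 (1.26) and AKR1C1 (5.90). With androgen against vehicle, AKR1C2 (-0.72) and AKR1C1 (-0.74) had negative log2 changes, while HMOX1 (-0.15), NQO1 (-0.08) and EMC3 (0.07) lay nearer to CRYAB (-0.04). For HSPB8 the most similar genes were DDIT4 (r = 0.994), PSAT1 (0.993), KLHL21 (0.992), DDIT3 (0.991) and MT2A (0.991), a metallothionein whose probe sets can bind relatives.

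Of the 5 genes nearest HSPB8 each had a negative log2 change with androgen against vehicle, between -0.22 for PSAT1 and -0.60 for DDIT3, as had HSPB8, while the changes with androgen plus celastrol against vehicle lay between 0.93 and 2.11. The genes nearest BAG3, among 842, were UBE3B (r = 0.978), ATP6V0A2 (0.976), ENTPD7 (0.973), B4GALT1 (0.969) and CRYBG1 (0.969). Their changes with androgen against vehicle lay between 0.86 and 1.80 and those with celastrol over androgen between 0.17 and 0.43, against 0.45 and 0.08 for BAG3. The genes compared had to span at least 1, whereas BAG3 itself changed by at most 0.53. A larger span than that of BAG3 was thus set by this choice. All 6 genes of this group were lowest on vehicle array 3. CRYAB, HSPB8 and BAG3 shared none of their 5 nearest genes, yet r between CRYAB and HSPB8 themselves was 0.973. The lack of shared names among so few genes thus does not set these 2 profiles apart. For BAG3, r was 0.562 with CRYAB and 0.434 with HSPB8.

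**Figure D4:**
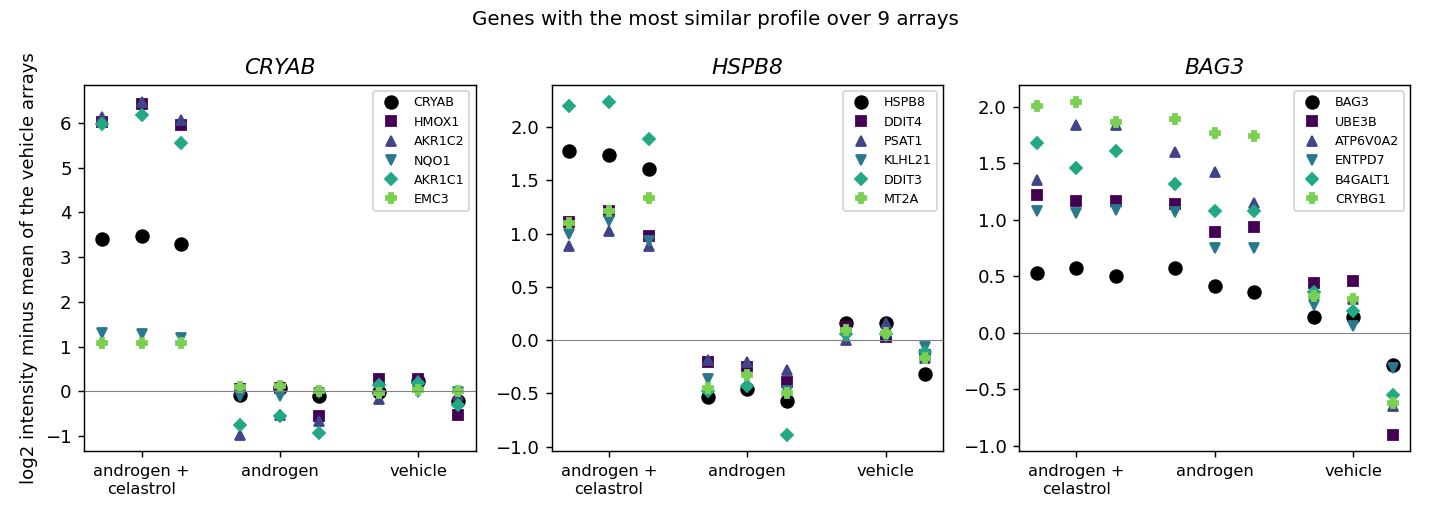
Log2 intensity minus the mean of the vehicle arrays (vertical axis) of CRYAB, HSPB8 and BAG3 (large black points) and the 5 genes with the highest Pearson r with each, on the 3 arrays each of androgen plus celastrol, androgen and vehicle from left to right. CRYAB and its nearest genes are high in the androgen plus celastrol group only. HSPB8 and its nearest genes have their lowest group with androgen, as have AKR1C1 and AKR1C2 in the CRYAB panel. BAG3 and its nearest genes are high in both androgen groups.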

How the data were processed

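RNA from 9 LNCaP cultures was measured on Affymetrix arrays. Each array has 1 deposited intensity for every probe set, not in logs, from RMA as run by the authors, per the submitters' processing notes, which name no RMA version. RMA includes a normalization between arrays, yet the upper quartiles of the deposited arrays still ran from 332 to 409, with vehicle array 3 lowest. Log2 was taken with a pseudocount of 0. No control probe sets and no scan dates were used, so that RNA quality and array batches were not checked. The number of arrays limits the precision, with a median standard error of a log2 change of 0.13.

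The platform annotation pairs 19724 of 22215 probe sets with a single gene, 568 with several and 1923 with none, and 19707 were named through their gene ID. Each of 12165 genes was represented by its probe set with the highest mean, and 4505 had more than 1. The 3 groups entered a single limma 3.58.1 model (R 4.3.3, lmFit and eBayes, with 6 residual and 2.70 prior degrees of freedom), without a replicate term. Members and lists were chosen with earlier results of these data known. Named genes were the members, from each list up to 4 past the threshold and up to 2 others by size of change, 2 measured neighbours on each side, 5 genes of most similar profile, and KLK3, TMPRSS2 and HMOX1. List genes named beyond this (BAG4, BAG6, HSPB7, ODF1, STUB1 and HSF1) were chosen after their values were seen. Correlations of deviations from the group means between arrays of the same replicate number were 0.40, 0.37 and 0.63 for androgen and vehicle, all over 0.1, the level taken here for paired numbers, although unlike numbers reached 0.41 (androgen 1 with vehicle 2) and 0.30 (androgen 2 with vehicle 1). The reported fits are unpaired, and the replicate block is an alternative. For androgen plus celastrol the correlations were -0.09, 0.21 and -0.19 with androgen and -0.25, 0.11 and -0.29 with vehicle. The fit was also run on simulated data with 12165 genes, for androgen plus celastrol against androgen. Of 50 genes each with changes of 0.5, 1, 2 and 3, 44%, 88%, 98% and 100% were called, and 12 of 11965 unchanged ones. The simulated noise was normal and independent between arrays, unlike the correlated deviations above. Only 200 genes were changed, whereas 1976 were called in the data. These shares thus check the fit and do not give the power or false calls in these data.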

Additional observations from a re-analysis of the deposited data

How the results depend on the processing

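Each result was recomputed under 18 alternatives. Of 17 weaker member results, all concern HSPB8 or BAG3 with androgen against vehicle, and none reversed. HSPB8 lost its call with each array's median subtracted (-0.44, adjusted p = 0.0553) and with only the groups compared (-0.52, adjusted p = 0.0757), and ranged from -0.68 to -0.45 when 1 array was left out (adjusted p = 0.000878 to 0.106). BAG3 lost it with all probe sets fitted (0.45, adjusted p = 0.0560) and with only the groups compared (0.45, adjusted p = 0.111), and ranged from 0.31 to 0.52 when 1 array was left out (adjusted p = 0.0475 to 0.165). HSPB2 against vehicle, with androgen plus celastrol, ranged from -0.38 to -0.21 when 1 array was left out, and passed at the lower end.

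The calls of CRYAB and HSPB8 with celastrol held throughout, with changes of CRYAB against androgen from 3.21 to 3.48 and of HSPB8 from 2.09 to 2.28. With dim genes left out, HSPB2 and HSPB3 were not tested. With 1 array left out, all genes called ranged from 1306 to 2667 for androgen plus celastrol against androgen, from 2285 to 2935 against vehicle and from 1078 to 1836 for androgen against vehicle. With the replicate block, genes called numbered 1716, 2688 and 1406 in these comparisons, and among the members and listed genes only SQSTM1 (androgen against vehicle) and DNAJA1 (androgen plus celastrol against androgen, adjusted p = 0.0729) lost their call.

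Small list counts moved. Autophagy partners called for androgen were 1 in place of 2 with probe sets averaged, each array's median subtracted, only the groups compared or the replicate block, and 1 to 2 when 1 array was left out. Heat shock factor targets called against vehicle were 5 in the main fit (1 higher and 4 lower). They were 9 with quantile normalization repeated (1 and 8), 8 with dim genes left out (1 and 7) and 10 with an intensity trend (2 and 8). Over all genes, 3180, 3201 and 3124 were called in these settings, in place of 2840. Of these, 1662, 1393 and 1353 were lower, in place of 1218. With dim genes left out, fewer genes were tested. The cause was not tested. Of the heat shock factor genes, 1 was called with probe sets averaged, in both celastrol comparisons. Of the small heat shock protein and BAG genes, 1 was called for androgen with probe sets averaged, dim genes left out or an intensity trend, and 0 to 1 when 1 array was left out; against androgen alone, 1 to 3 were called when 1 array was left out. DNAJA1 and BAG1 stood near the threshold. Dim probe sets limit what can be said of HSPB2 and HSPB3.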
